A study of Canis lupus familiaris with 12 samples.

Results

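The genes described here are the canine translation initiation and elongation factors, taken as every gene in the left ventricle and mitral valve tables whose name begins with EIF or EEF followed by a digit. The rule found 56 entries of the 24223 genes listed for each tissue, under 54 names, because EIF4A1 and EIF4E2 each stood on 2 loci. Of the 56, 44 are factor subunits or close relatives and 12 are proteins that share the name: the Argonautes under their older symbols EIF2C1 to EIF2C4, the eIF2 kinases EIF2AK1, EIF2AK3 and EIF2AK4, the eIF4E-binding proteins EIF4EBP1 and EIF4EBP2, the eIF4E transporter EIF4ENIF1, the eEF2 kinase EEF2K, and EIF1AD. In both tissues 55 of the 56 were tested by the authors. The entry left untested was EIF4E1B, a germline relative of the cap-binding protein, which stood at no more than 0.0338 FPKM in any group in the authors' deposited tables.

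Samples came from 8 dogs, 4 with degenerative mitral valve disease (DMVD), in which the leaflets thicken and leak, and 4 controls, and made 12 RNA-seq libraries. The DMVD left ventricle group held a Jack Russell Terrier (5 years) and a Pomeranian (9 years), set against 4 control ventricles, from a Beagle (8 years) and 3 Hound mix dogs (3 years each). The DMVD mitral valve group held that Pomeranian and a further 2 Beagles (16 and 17 years), set against 3 control valves, from the control Beagle and 2 of the Hound mix dogs. DMVD dogs thus differed from controls in age and breed as well as in diagnosis, and these cannot be told apart; 1 DMVD dog and 3 control dogs gave both tissues. The tables hold a single value for each group, in FPKM (fragments scaled to transcript length and library size), which leaves the spread between dogs and the depth per library unknown. Log2 values are given as DMVD over control. The figure after ± is a standard error (SE), worked out from the statistic that the authors deposited with each gene.

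Initiation factors bring the small ribosomal subunit, the initiator tRNA and the messenger RNA together. eIF2 carries the initiator tRNA, eIF2B recharges eIF2 with GTP, eIF3 is the large scaffold on the small subunit, and eIF4E, eIF4G and eIF4A form the cap-binding complex that recruits and unwinds the messenger. eIF5 and eIF5B complete subunit joining, eIF6 keeps large subunits free until they are needed, and the eEF1 and eEF2 factors then deliver aminoacyl-tRNAs and move the ribosome along. In heart muscle these steps are known as control points of protein synthesis during growth, through mTOR acting on the eIF4E-binding proteins and through kinases that inhibit eIF2 or eEF2.

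Most of these genes were expressed well above the typical gene. Among tested genes, the median control percentile of the 55 was 82.0 in ventricle and 83.7 in valve, and 39 and 40 of them stood at 10 FPKM or more. EEF2, the translocase of the elongation cycle (ENSCAFG00000019158, chromosome 20, 55576876 to 55585906, CanFam3.1), was the highest in every group except the DMVD ventricle. The authors' group values for EEF2 were 379 FPKM in control and 314 in DMVD ventricle, and 306 and 280 in control and DMVD valve. EIF3K, a small eIF3 subunit (ENSCAFG00000005866, chromosome 1, 114433407 to 114443814), followed with 237 and 319 FPKM in ventricle and 262 and 258 in valve. It thus stood beside EEF2 at the top in the DMVD ventricle.

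Levels spanned a wide range, both within a complex and between genes related by name. EIF3K stood 9.28 times above EIF3A, the largest scaffold subunit of eIF3, in control ventricle, and 11.2, 7.55 and 7.75 times above it in DMVD ventricle, control valve and DMVD valve. The listed locus of EIF3A is shared with another named gene. EIF2S2, the beta subunit of eIF2, stood 6.04 times above EIF2S1, the alpha subunit that the eIF2 kinases phosphorylate, in control ventricle and 5.13, 5.54 and 5.31 times above it in the other 3 groups. EIF4G2, a scaffold relative that lacks the eIF4E-binding part, stood 6.60 to 8.70 times above EIF4G1 over the 4 groups. At the low end were the Argonautes, which load small RNAs and are no translation initiation factors despite the older name: their control values ran from 1.12 to 2.77 FPKM in ventricle and from 1.19 to 3.64 in valve.

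**Figure D1:**
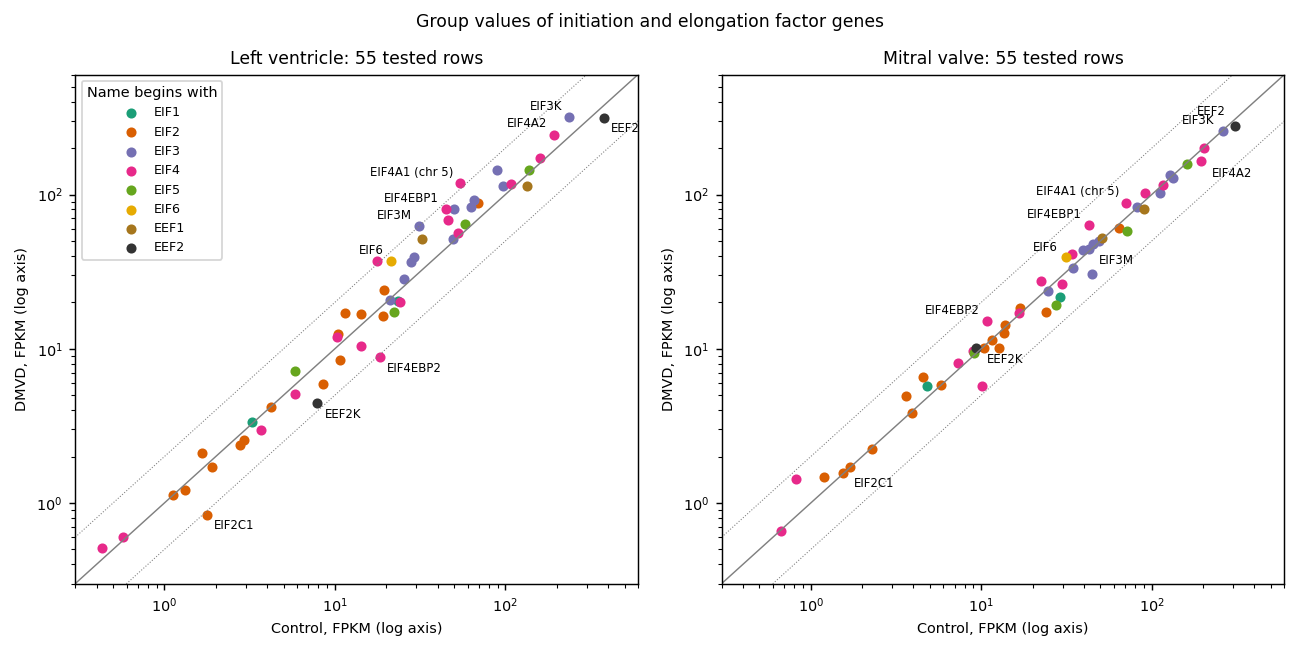
Authors' group value of each tested initiation or elongation factor gene in control (horizontal, FPKM, log axis) and DMVD (vertical, FPKM, log axis), with left ventricle on the left and mitral valve on the right; each point is a gene entry, the solid line marks equal values and the dotted lines a 2-fold difference. In the ventricle 5 entries lie at or beyond a dotted line and in the valve none does.

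The left ventricle comparison asks how these genes differ in the chamber that pumps against a leaking valve. No initiation or elongation factor passed the test in the DMVD ventricle. The values leaned upward for eIF3 and for the eIF4A helicase entries, with EIF3M and both EIF4A1 entries about 2-fold higher in DMVD, and leaned downward for EIF4EBP2, EEF2K and EIF2C1. Of 55 tested, 0 reached an adjusted p under 0.05 (the authors' two-sided p, adjusted by Benjamini-Hochberg across the 13788 tested genes), where 3.08% of all tested genes did. An unadjusted p under 0.05 was found for 2 of 55, EIF3M and the chromosome 9 entry of EIF4A1, where 11.3% of all tested genes had one. Of the 55, 34 had a higher DMVD value and 21 a lower one, with a median log2 value of 0.13, while 47.1% of all tested genes with a value above 0 in both groups were higher and their median was -0.04. Restricted to a mean of 5 FPKM or more, the median was 0.23 for the factors (30 of 43 higher) and 0.06 for all genes.

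The eIF3 subunits leaned upward as a group. Of 12 eIF3 genes 11 had a higher value in the DMVD ventricle, 0 passed, and the median log2 value was 0.41. Their summed level was 787 FPKM in control and 1072 in DMVD. Over all listed ventricle genes the sum was 1.90e+06 FPKM in control and 1.07e+06 in DMVD, and a single gene reached 416027 in control. The part of these unlike totals in the ventricle sums and in the lean was not tested. EIF3M, a PCI-domain subunit of the complex (ENSCAFG00000007368, chromosome 18, 34806368 to 34969731), stood at 31.1 FPKM in control and 62.7 in DMVD ventricle. Its log2 value of 1.01 ± 0.44 had a 95% interval from 0.15 to 1.88, with p = 0.0214 in the authors' deposited table and an adjusted p of 0.279, and its listed locus is shared with CCDC73. EIF3E, which contacts eIF4G, had 0.68 ± 0.47 (50.3 and 80.8 FPKM), and EIF3H had 0.68 ± 0.53 (89.6 and 143 FPKM). EIF3I, EIF3L and EIF3K lay between 0.43 and 0.49, EIF3D and EIF3F at 0.39 and 0.38, and EIF3G at 0.24. The scaffold subunit EIF3A had 0.16 ± 0.47 and EIF3B, the only eIF3 gene with a lower DMVD value, -0.02 ± 0.42. The loosely bound EIF3J had 0.05 ± 0.41, and EIF3C was not among the 12.

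The cap-binding and helicase group was split between its parts. The 4 eIF4A entries were all higher in DMVD, with a median of 0.70 and 0 passing. The EIF4A1 entry on chromosome 5 (ENSCAFG00000016632, 32473595 to 32594414) rested on 54.3 FPKM in control and 119 in DMVD and had 1.13 ± 0.86 (adjusted p = 0.766 from the authors' p). The entry of the same name on chromosome 9 (ENSCAFG00000004690, 24218676 to 24249796) rested on 17.7 and 37.1 FPKM and had 1.06 ± 0.48 (95% interval 0.12 to 2.01, adjusted p = 0.318 from the authors' p). Both listed loci are shared, so reads of other genes may enter these values, which was not tested: the chromosome 5 locus also lists CD68, a macrophage gene, among its 17 entries, and the chromosome 9 locus lists SP2 and has none of the neighbours that RefSeq places beside EIF4A1. EIF4A2, the helicase form that was the more abundant of the pair, stood at 193 and 245 FPKM (0.34 ± 0.51), and the exon-junction helicase EIF4A3 had 0.22 ± 0.41. The listed locus of EIF4A2 is also shared, with 6 entries that include another named gene. The helicase partners EIF4B (107 and 118 FPKM) and EIF4H (52.5 and 56.0 FPKM) had 0.13 ± 0.45 and 0.09 ± 0.44.

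Among the genes that bind or compete for the messenger cap, EIF4E, the cap-binding protein itself, stood at 46.1 FPKM in control and 68.7 in DMVD ventricle (0.58 ± 0.42, adjusted p = 0.737 from the authors' p). The scaffolds EIF4G1 (24.1 and 20.0 FPKM) and EIF4G3 had -0.27 ± 0.45 and -0.31 ± 0.42, and EIF4G2 had 0.13 ± 0.51. EIF4ENIF1, which carries eIF4E into the nucleus, had -0.19 ± 0.43 on 5.81 and 5.08 FPKM. EIF4E3, an atypical cap-binding relative, had -0.45 ± 0.50 on 14.2 and 10.4 FPKM. The eIF4E-binding proteins, which hold eIF4E away from eIF4G until mTOR phosphorylates them, had opposite signs in ventricle. EIF4EBP1 (ENSCAFG00000006154, chromosome 16, 27390283 to 27410103) stood in the authors' values at 45.1 FPKM in control and 80.3 in DMVD, with 0.83 ± 0.47 (adjusted p = 0.544). EIF4EBP2 (ENSCAFG00000014050, chromosome 4, 21338906 to 21357830) stood in the authors' values at 18.3 and 8.83 FPKM, with -1.05 ± 0.59 (adjusted p = 0.541). Neither difference passed, and the ratio of EIF4EBP1 to EIF4EBP2 was 2.46 in control and 9.10 in DMVD ventricle, against 3.96 and 4.17 in control and DMVD valve. The 2 short EIF4E2 entries stayed under 1.5 FPKM in every group and lack the neighbours of the RefSeq gene.

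**Figure D2:**
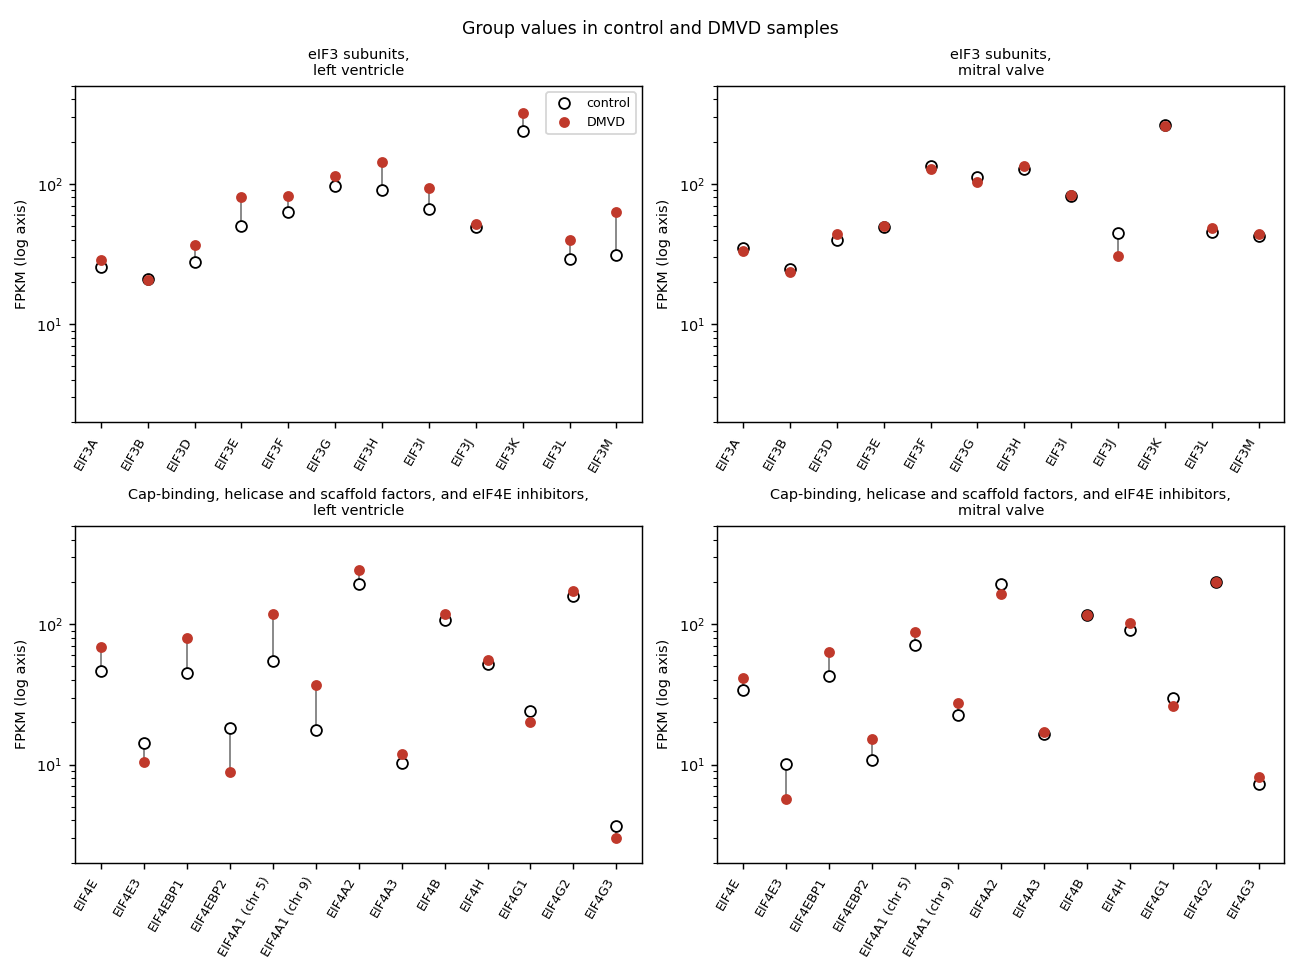
Authors' group value (FPKM, log axis) of each eIF3 gene (upper panels) and of the cap-binding, helicase, scaffold and eIF4E-inhibitor genes (lower panels) in control (open) and DMVD (filled), joined by a line, for left ventricle (left panels) and mitral valve (right panels). The ventricle lines are long and upward for EIF3M and the EIF4A1 entries and downward for EIF4EBP2, and the valve eIF3 points nearly coincide except for EIF3J.

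The eIF2 group showed no common direction in ventricle, with 6 of 16 higher and a median of -0.07. The eIF2 subunits EIF2S1 (11.5 and 17.2 FPKM, 0.58 ± 0.41) and EIF2S2 (69.5 and 88.1 FPKM, 0.34 ± 0.42) were both higher in DMVD. Of the 5 subunits of eIF2B, the exchange factor, 2 were higher, EIF2B3 (0.30 ± 0.41) and EIF2B1 (0.25 ± 0.47), and 3 lower, EIF2B2 (-0.53 ± 0.49, 8.53 and 5.91 FPKM), EIF2B4 (-0.23 ± 0.43) and the catalytic EIF2B5 (-0.19 ± 0.42). The kinases that phosphorylate eIF2 in response to stress were low: EIF2AK3, the kinase of the endoplasmic reticulum also called PERK, had 1.65 and 2.12 FPKM (0.36 ± 0.48), the haem-regulated EIF2AK1 -0.02 ± 0.48 and the amino acid sensor EIF2AK4 -0.13 ± 0.44. EIF2A, a separate initiator-tRNA-binding protein, had 0.23 ± 0.41, and EIF2D -0.34 ± 0.42.

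Of the Argonaute entries EIF2C2 was level and the others had lower DMVD ventricle values, by less than the SE for EIF2C3 and EIF2C4. EIF2C1, now AGO1 (ENSCAFG00000003443, chromosome 15, 6263881 to 6295271), stood furthest from 0. It read 1.77 FPKM in control and 0.841 in DMVD (-1.08 ± 0.55, adjusted p = 0.453 from the authors' p). Its neighbours on chromosome 15, EIF2C3 and EIF2C4, had -0.15 ± 0.53 and -0.23 ± 0.42, and EIF2C2 on chromosome 13 had 0.00 ± 0.57 with 1.12 FPKM in both groups.

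The factors of late initiation and elongation were few. EIF6, the anti-association factor of the large subunit (ENSCAFG00000008000, chromosome 24, 24261890 to 24265995), stood at 21.4 FPKM in control and 36.9 in DMVD ventricle (0.78 ± 0.44, adjusted p = 0.526 from the authors' p). EIF5, the GTPase activator of eIF2, had 57.7 and 64.0 FPKM (0.15 ± 0.44), EIF5B, the subunit-joining GTPase, 22.1 and 17.3 FPKM (-0.35 ± 0.53), and EIF5A2 0.30 ± 0.42. EIF5AL1, named for a copy of the hypusine-containing factor eIF5A but lying among the neighbours RefSeq gives EIF5A (chromosome 5, 32189048 to 32365679), read 138 and 145 FPKM. Its SE of 2.91, the widest of all 55, leaves its difference unmeasured, and its locus lists 19 entries. EIF1AX, which scans with the small subunit, had -0.20 ± 0.43 and EIF1AD 0.04 ± 0.46.

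In the eEF1 exchange complex EEF1D read 134 and 113 FPKM (-0.24 ± 0.51). EEF1B2 read 32.4 and 51.5 FPKM (0.67 ± 0.67), and its entry lacks the neighbours of the RefSeq gene. EEF2 had -0.27 ± 0.57. EEF2K, the calcium- and calmodulin-dependent kinase that inhibits eEF2 (ENSCAFG00000017716, chromosome 6, 23367753 to 23433920), stood at 7.89 FPKM in control and 4.44 in DMVD ventricle. Its log2 value was -0.83 ± 0.43, with p = 0.0512 in the authors' deposited table and an adjusted p of 0.448. The ratio of EEF2 to EEF2K was 48.1 in control and 70.8 in DMVD ventricle, and 32.9 and 27.7 in control and DMVD valve. The eEF1A genes EEF1A1 and EEF1A2 were not analysed here, nor were EEF1G, EIF1, EIF1B, EIF2AK2, EIF2S3 and EIF5A under those names.

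The ventricle lean was also read by level and by kind of gene, with no test of the difference. Of the 28 entries in the upper part by mean FPKM (at least 21.9) 24 were higher in DMVD, with a median of 0.36, and of the 27 in the lower part 10 were, with a median of -0.13. Over all genes the share also moved upward with level, from 47.1% higher to 54.5% at a mean of 5 FPKM or more. The share over all genes was not read at 21.9 FPKM. The 43 tested factor subunits had a median of 0.23 (31 higher) and the 12 associated proteins -0.14 (3 higher). An alternative chosen after seeing the data left out the 4 entries without the RefSeq neighbours and those sharing a locus with another named gene. With these left out, 43 tested entries remained, of which 24 were higher, with a median of 0.09 and 0 passing. Of the 43, 0 had an unadjusted p under 0.05, as EIF3M and the chromosome 9 entry of EIF4A1 were left out. The precision sets what could be seen: the median SE was 0.45, so that a 95% interval reached 0.89 to either side, a 1.85-fold difference. The interval spanned 0 for 53 of 55, and among called ventricle genes with a mean of 5 FPKM or more the smallest difference was 1.33.

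**Figure D3:**
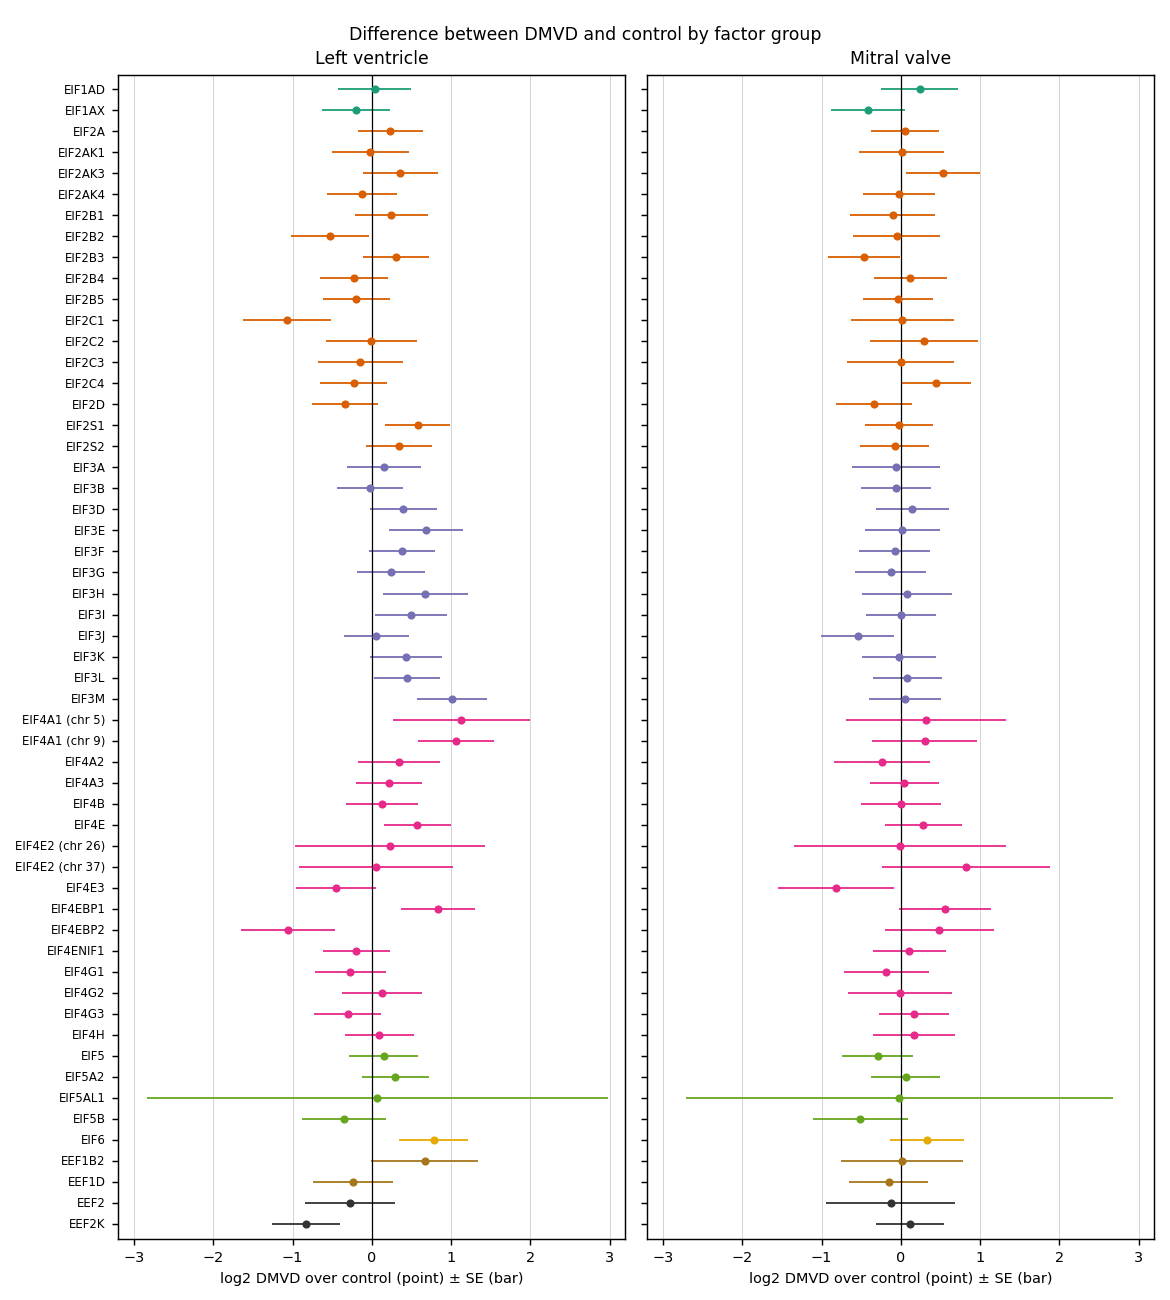
Log2 DMVD over control (point) with its SE (bar) for the 55 tested entries, coloured by factor group, in left ventricle (left) and mitral valve (right). In the ventricle 11 of the 12 eIF3 points lie right of 0, and in the valve most points lie within 1 SE of 0.

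The mitral valve comparison asks the same of the tissue that is itself diseased. In the valve no factor passed the test, and the DMVD and control values of the family lay close together, with about as many genes higher as lower. The eIF3 genes showed no lean, and the gene furthest from 0 above a mean of 5 FPKM was EIF4E3. Of 55 tested, 0 passed an adjusted p of 0.05, where 0.419% of the 14810 tested genes did, and 0 had an unadjusted p under 0.05, where 4.2% of tested genes had one. Every adjusted p was 0.999938. Higher DMVD values were read for 28 and lower ones for 27, with a median of 0.00 against 0.05 for all tested genes, and 54.7% of all tested genes above 0 in both groups were higher. The difference was smaller than its own SE for 50 of 55, against 40 of 55 in ventricle, and 49 lay within 0.5 of 0, against 41 in ventricle.

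Of the 12 eIF3 genes 6 were higher and 6 lower in the DMVD valve, with a median of -0.01 and a summed level of 999 FPKM in control and 978 in DMVD. Over all listed valve genes the sum was 898415 FPKM in control and 772300 in DMVD. EIF3M read 42.6 and 44.1 FPKM (0.05 ± 0.45), EIF3E 49.2 and 49.8 (0.02 ± 0.47), EIF3A 34.7 and 33.3 (-0.06 ± 0.55) and EIF3K -0.02 ± 0.46. EIF3J was the one eIF3 gene over 0.15 from 0, at 44.7 and 30.6 FPKM (-0.54 ± 0.46).

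The larger valve differences above a mean of 5 FPKM were spread over several factor groups. EIF4E3 read 10.1 FPKM in control and 5.72 in DMVD (-0.82 ± 0.73), the lowest log2 value of the valve set. EIF4EBP1 read 42.9 and 63.3 FPKM (0.56 ± 0.58) and EIF4EBP2 10.8 and 15.2 (0.49 ± 0.69), so that both inhibitors had higher DMVD values, while in ventricle EIF4EBP2 had a lower one. EIF2AK3 had 0.53 ± 0.47 on 4.56 and 6.60 FPKM, EIF6 0.33 ± 0.47, the EIF4A1 entries 0.32 ± 1.01 and 0.30 ± 0.66, and EIF4E 0.28 ± 0.49. On the lower side EIF5B had -0.51 ± 0.60 (27.3 and 19.2 FPKM), EIF2B3 -0.47 ± 0.45 (23.8 and 17.3), EIF1AX -0.42 ± 0.46 (29.1 and 21.8) and EIF5 -0.29 ± 0.45 (71.2 and 58.3). None of these passed, and the 95% interval spanned 0 for all 55.

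Of the remaining entries, EIF4E2 on chromosome 37 had 0.82 ± 1.06 from 0.814 and 1.44 FPKM, EIF2C4 0.45 ± 0.44 and EIF2D -0.33 ± 0.48. EIF4A2 had -0.24 ± 0.60, EIF4G1 -0.18 ± 0.53 and EIF4G2 -0.01 ± 0.66, with 201 and 200.2 FPKM for the last. EIF2S1 and EIF2S2 had -0.02 ± 0.43 and -0.08 ± 0.44, EIF2B2 -0.05 ± 0.55 and EIF2B5 -0.03 ± 0.44. EEF1D, EEF1B2, EEF2 and EEF2K had -0.15 ± 0.50, 0.02 ± 0.77, -0.13 ± 0.81 and 0.12 ± 0.43, and EIF5AL1 -0.02 ± 2.70. The valve values not given singly, over all groups, lay between -0.13 for EIF3G and 0.29 for EIF2C2. The 12 associated proteins had a median of 0.18 (10 higher), the reverse sign to the ventricle, and the 43 factor subunits -0.02 (18 higher). The median SE of 0.48 gave a 95% half-width of 0.94, a 1.91-fold difference.

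Whether the DMVD effect differed between the tissues was tested gene by gene as valve minus ventricle, although 1 DMVD and 3 control dogs gave both tissues and the test does not use that. Of 55, 0 passed an adjusted p of 0.05, where 0.107% of the 13099 genes tested in both did, and 0 had an unadjusted p under 0.05, where 2.66% had one. From the authors' statistics EIF4EBP2 had the smallest p, with a difference of 1.54 ± 0.91 (95% interval -0.24 to 3.32, two-sided normal p = 0.0904). From the authors' statistics, too, EEF2K had 0.95 ± 0.61 (p = 0.118) and EIF3M, on the other side, -0.96 ± 0.63 (p = 0.127). The valve value lay below the ventricle value for 34 genes and above it for 21, with a median difference of -0.18 against 0.05 for all genes, and 42 of 55 had the smaller absolute value in the valve. The eIF3 lean of the ventricle is therefore not shown to be particular to it.

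Other genes of translation were read from lists kept beside the factors. Of 11 tested entries for termination, recycling and messenger-binding factors 0 passed in either tissue. An unadjusted p under 0.05 was found for 1 in ventricle and 0 in valve. Of all tested genes 3.08% passed in ventricle and 0.419% in valve, and 11.3% and 4.2% had an unadjusted p under 0.05. All 11 entries, among them more than 1 for ETF1, were higher in DMVD ventricle, with a median of 0.41. In valve 4 of 11 were, with a median of -0.12. Among all genes with a mean of 5 FPKM or more, 54.5% were higher in ventricle and 52.8% in valve. PDCD4, an inhibitor of eIF4A, had 1.05 ± 0.44 in ventricle (10.6 and 22.0 FPKM, adjusted p = 0.247 from the authors' p), and MCTS1, a ribosome recycling factor, 0.75 ± 0.44. Of 20 cytosolic aminoacyl-tRNA synthetase entries 0 passed in either tissue (1 in ventricle and 0 in valve at an unadjusted p under 0.05), with medians of 0.07 and 0.03 and 12 higher in each.

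In the control pathways single genes passed in ventricle, where 3.08% of all tested genes did and 11.3% had an unadjusted p under 0.05. In valve 0.419% of all tested genes passed and 4.2% had an unadjusted p under 0.05. Of 12 tested mTOR and MAP kinase pathway genes in ventricle 1 rose and 0 fell, while 11 did not pass (2 of 12 at an unadjusted p under 0.05); the list median was -0.37. The riser was DDIT4, an inhibitor of mTOR complex 1, at 12.3 FPKM in control and 142 in DMVD (3.53 ± 0.54, adjusted p = 2.40e-08 from the authors' p). MTOR had -0.73 ± 0.43, its partner RPTOR -0.94 ± 0.49 and the inhibitor TSC1 -0.98 ± 0.51, while RPS6, a ribosomal protein that S6 kinases phosphorylate, had 1.03 ± 0.52 on 583 and 1190 FPKM. In valve 0 of 13 passed (1 at an unadjusted p under 0.05), with a median of -0.01, and DDIT4 had 3.15 ± 1.02 (adjusted p = 0.227 from the authors' p). Of 10 tested integrated stress response genes in ventricle, which respond to phosphorylated eIF2, 1 rose and 0 fell, while 9 did not pass (2 of 10 at an unadjusted p under 0.05); the list median was 0.38. It was the asparagine synthetase ASNS, at 0.342 and 1.52 FPKM (2.16 ± 0.58, adjusted p = 0.0114 from the authors' p), while ATF4, whose translation is raised by eIF2 phosphorylation, had 0.49 ± 0.49 on 228 and 321 FPKM and DDIT3 0.05 ± 0.51. In valve 0 of 12 passed and 0 had an unadjusted p under 0.05, with a median of 0.11.

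**Figure D4:**
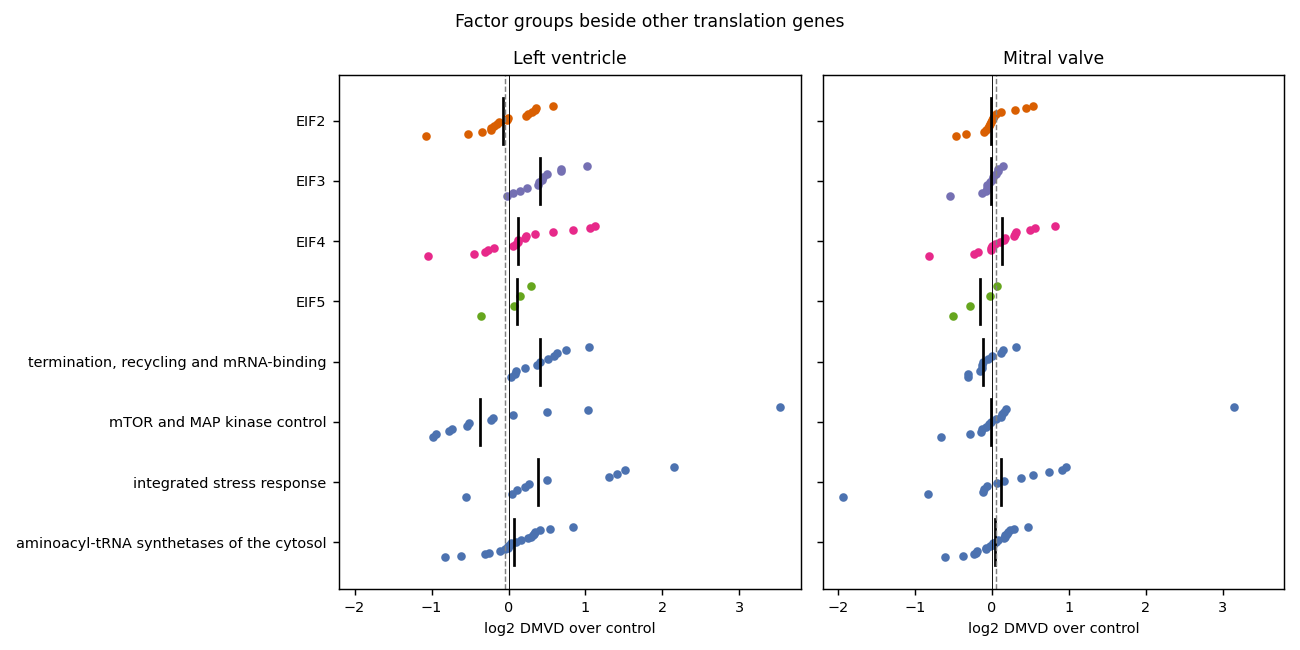
Log2 DMVD over control of each tested gene in the 4 larger factor groups and in 4 lists of other translation genes (points), with the median of each (vertical bar) and of all tested genes (dashed line), in left ventricle (left) and mitral valve (right). In the ventricle the eIF3 median is 0.41 and the mTOR list median -0.37, and in the valve the 8 medians lie between -0.16 and 0.13.

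Cell type markers differed between the groups beside these values. The ventricle groups carried heart muscle genes at high levels (MYL3 4676 FPKM in control and 4451 in DMVD) and the valve groups those of matrix-producing cells, although heart muscle genes were also high in valve. Of the lists kept for cell types, 8 of 15 cardiomyocyte, 4 of 7 erythroid, 8 of 11 macrophage and monocyte, 5 of 9 fibroblast, 5 of 5 smooth muscle and 4 of 7 endothelial markers matched an entry. In ventricle, where 3.08% of all tested genes passed, the 4 matched erythroid genes rose (summed level 62.6 FPKM in control and 3604 in DMVD). Of 8 macrophage and monocyte genes 4 rose, C1QB, FCGR1A, S100A8 and S100A9 (summed level of the 8, 36.8 and 254). Most of the DMVD sum came from S100A8 (5.96 and 150 FPKM) and S100A9 (1.26 and 24.3), which are not particular to macrophages and monocytes. CD68, CD163, C1QA and C1QC had higher values but did not pass, and the SE of 44.0 for CD68 leaves its difference unmeasured. VWF among 4 endothelial genes and POSTN among 4 tested fibroblast genes also rose. The 7 tested cardiomyocyte markers gave 0 calls in ventricle (median -0.34). MYH7 was listed at 0 in control ventricle under the status HIDATA and was not tested, so this 0 is not read as absence. In valve MYL3, a light chain of heart muscle, was 1335 FPKM in control and 36.6 in DMVD and was the one of 8 cardiomyocyte markers that fell (-5.19 ± 0.68), as the summed level of the 8 went from 19459 to 9407 FPKM. Valve HBA, S100A9 and C1QB rose, where 0.419% of all tested valve genes passed. The summed erythroid level was 35.8 and 608 FPKM, of which HBA gave 34.4 and 604. AHSP, ALAS2 and HBM, the last listed at 0 in control, did not pass in valve. The summed macrophage level was 76.1 and 239 FPKM. In valve 0 of 4 tested smooth muscle and 0 of 4 tested fibroblast markers passed, with summed levels of 775 and 1697 FPKM and of 1213 and 1831 FPKM, and POSTN, LUM, COL1A1 and COL1A2 all stood above 100 FPKM in both valve groups. In bulk tissue fewer cells of a type and less RNA per cell cannot be told apart, and the part of these markers in the factor values was not tested.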

How the data were processed

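RNA was sequenced from dog left ventricle and mitral valve (12 libraries, 4 groups by tissue and diagnosis). The submitters' processing notes list cutadapt, Bowtie and TopHat, with no versions, and the build CanFam3.1. Which program produced the tables was not given in the sources used here. Per the file headers, each tissue has a table laid out like a Cuffdiff gene table, with one value per group, read here as FPKM deposited by the authors. Fold changes on the log2 scale, deposited by the authors as control over DMVD, were recomputed as DMVD over control. The deposited p-value matched a two-sided normal p of the authors' test statistic (largest gap 2.84e-06 in ventricle, 2.64e-06 in valve), so an SE was taken as the size of the log2 value over the statistic. This SE comes from the authors' model, and nothing shows that it measures the spread between dogs. Whole libraries could not be left out and no depth interval could be given.

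The authors' p-values were adjusted by Benjamini-Hochberg over all tested genes of a tissue, at 0.05, in place of any fit over libraries. Intervals are the value ± 1.96 SE. The tables were taken as separately normalised, so tests were made within a tissue, and only the DMVD effects were compared between tissues. Levels set side by side across tissues are descriptions. The members, the gene lists and the alternatives were chosen with earlier results of these data known. The naming rule took every called member (0), the 5 highest and 5 lowest log2 values of each tissue above a mean of 5 FPKM, the highest gene of each factor group and a set of core factors; it gave 27 entries, and other members are given beside them so that each is counted or falls in a stated range. Listed loci on CanFam3.1 are shared with another entry for 16 of the 56, of them 10 with another named gene. The 10 are EEF1B2, EIF2AK1, EIF3A, EIF3F, EIF3M, both EIF4A1 entries, EIF4A2, EIF5AL1 and EIF5B. Each entry was looked up in RefSeq under its current symbol, which for some differs from the listed one, and all 56 were found. The 10 nearest named genes were compared with the RefSeq order (assembly UU_Cfam_GSD_1.0, used for names and neighbours only): 52 shared a neighbour and 4 did not. The calculations were tested on simulated data and run in Python 3.11.15 (scipy 1.17.1, pandas 2.3.3, numpy 2.4.6, matplotlib 3.10.9).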

Additional observations from a re-analysis of the deposited data

How the results depend on the processing

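The count of called factor genes stayed 0 in ventricle and in valve with a minimum mean of 1 FPKM before the adjustment, Bonferroni, genes at 0 left out, factor subunits only and, chosen after seeing the data, doubtful entries left out. In the difference it stayed 0 with the medians of all tested genes subtracted and with the minimum mean of 1 FPKM. The ventricle median of 0.13 became 0.23 for genes of mean 5 FPKM or more and 0.23 with factor subunits only. With factor subunits only, an alternative for the groups that was chosen after seeing the data, the ventricle medians became -0.20 for EIF1, 0.23 for EIF2 (from -0.07, a change of sign) and -0.27 for EEF2, and the valve medians -0.42 for EIF1 and -0.13 for EEF2. The other 43 of 48 recomputed group medians moved by under 0.1, and 108 of 108 recomputed values of named genes stayed within their SE, with 1 FPKM added or with the median of all tested genes (-0.04 in ventricle, 0.05 in valve) subtracted. No paired analysis was possible because the tables hold a single value per group, and for the same reason leaving out each library was not run. The planned ratio of EEF1A1 to EEF1A2 was not run, as these genes were not analysed here. Differences under about 1.85-fold in ventricle and 1.91-fold in valve lay within the interval of a gene of median SE.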
